A study of Mus musculus with 6 samples.

Results

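The genes studied here encode the enzymes that activate NEDD8 and attach it to its targets. They are Uba3, Nae1, Nedd8, Ube2m, Ube2f and Dcun1d1 to Dcun1d5, 10 genes of the 28738 Ensembl gene IDs in the deposited table. They were listed by name and matched to the table through their mouse symbols, and all 10 were found and passed the level filter. RNA sequencing had been run on mouse fully-grown oocytes at the germinal vesicle (GV) stage, held in meiotic prophase until maturation. Each group had 3 libraries, and each library was made from a pool of about 150 oocytes. The Uba3 cKO oocytes carry a conditional knockout of Uba3 and the control oocytes are labelled only as control, and both groups have the strain label C57/Bl6/N;129SvEv7. No source used here gave the Cre driver, the deleted part of Uba3, the age of the mice or the number of mice in a pool. Whether the pools are from separate mice is not labelled either, and the p-values thus cover only the spread from pool to pool, which may be technical.

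NEDD8 is a small protein related to ubiquitin that is attached to other proteins by an enzyme cascade of its own. The activating enzyme (E1) is a heterodimer of UBA3, the catalytic subunit, and NAE1, the regulatory subunit. It passes NEDD8 to a conjugating enzyme (E2), either UBE2M or UBE2F. The DCUN1D proteins bind both the E2 and a cullin and promote the transfer of NEDD8 to the cullin, the scaffold of cullin-RING ubiquitin ligases. In human cells UBE2M acts mainly with RBX1 on most cullins and UBE2F acts with RNF7 on CUL5.

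Values are the authors' normalized values on a log2 scale. The depth of each library is unknown, so no counting interval can be given, and only the number of libraries limits the precision stated here. Genes were kept where the linear value was 10 or more in at least 3 libraries, and were called at a limma adjusted p under 0.05 (Benjamini-Hochberg over all kept genes). Across the 17450 genes kept, Pearson correlations between libraries were 0.9972 to 0.9981 within Uba3 cKO, 0.9968 to 0.9980 within control and 0.9948 to 0.9971 across the groups. These correlations are across genes, which are not independent replicates. Oocyte markers were high, and the summed linear values of the 15 markers lay between 452655 and 507487 in Uba3 cKO and between 502256 and 579050 in control libraries. Of these, 1 was called higher and 2 were called lower. Some markers of other ovarian cells also had signal, and no value in the table was exactly 0. The summed linear values of 14 granulosa and cumulus markers were 15801 to 20871 in Uba3 cKO and 18388 to 21713 in control, and those of 12 theca, stroma and luteal markers were 1674 to 1921 in Uba3 cKO and 2175 to 3169 in control. Of the granulosa and cumulus markers, 12 were kept, with 2 called higher and 1 lower. Of the 12 theca, stroma and luteal markers, 6 were called lower in Uba3 cKO oocytes, none was called higher, and their median log2 difference was -0.48. The sums of 9 blood and immune markers were 515 to 564 in Uba3 cKO and 563 to 675 in control, and those of 6 endothelial markers were 3731 to 4250 in Uba3 cKO and 3655 to 3988 in control. Of the 6 kept blood and immune markers 2 were called lower, and of the endothelial markers 1 was called lower. The endothelial sums rest mainly on Pecam1 and Tek (mean log2 11.30 and 10.12), while Tie1, Kdr, Cdh5 and Emcn were at 7.23, 6.50, 4.28 and 3.99. Among the blood and immune markers C1qb was highest (8.14), and C1qa, Cd3e and Hbb-bt were under the level filter. These sums alone do not show that a cell type was present.

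Of the 10 genes, Uba3 alone passed the test, and it was lower in Uba3 cKO oocytes. Uba3 (ENSMUSG00000030061, chromosome 6) encodes the catalytic subunit of the NEDD8-activating enzyme and is the gene that the knockout targets. Its log2 values were 10.03, 10.16 and 10.36 in Uba3 cKO replicates 1, 2 and 3, against 11.37, 11.46 and 11.34 in control replicates 1, 2 and 3. Every Uba3 cKO library was below every control library. The mean was 10.18 ± 0.16 in Uba3 cKO and 11.39 ± 0.06 in control libraries (SD, n = 3 each). The log2 difference of -1.21 had a 95% interval of -1.43 to -0.99 and an adjusted p of 2.07e-05 in limma, and it left a level of 43.2% of control. The value counts reads over the whole gene, exons outside the deleted part included. In a pooled library, fewer oocytes that carry the transcript and less of it in each oocyte cannot be told apart. Of the 50-base runs of Uba3, 0.641% occur in other annotated transcripts. The part that the other cell types, whose marker sums are given above, play in the remaining signal was not tested.

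Of all 17450 kept genes, 8.14% were called in either direction, 2.50% lower and 5.64% higher. The count of 1 in 10 is thus near the background share, and the call is that of the targeted gene. Uba3 had the lowest log2 difference of all kept genes, and it was also the lowest in 15 of the 17 alternative analyses. Its rank from the lowest was 2 without Uba3 cKO replicate 1 and 5 without control replicate 1. The other 9 genes were not called, and none had an unadjusted p under 0.05. Of the 10 genes, 7 had a log2 difference below 0, against 51.8% of all kept genes. Their median was -0.06, and that of all kept genes was -0.01.

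**Figure D1:**
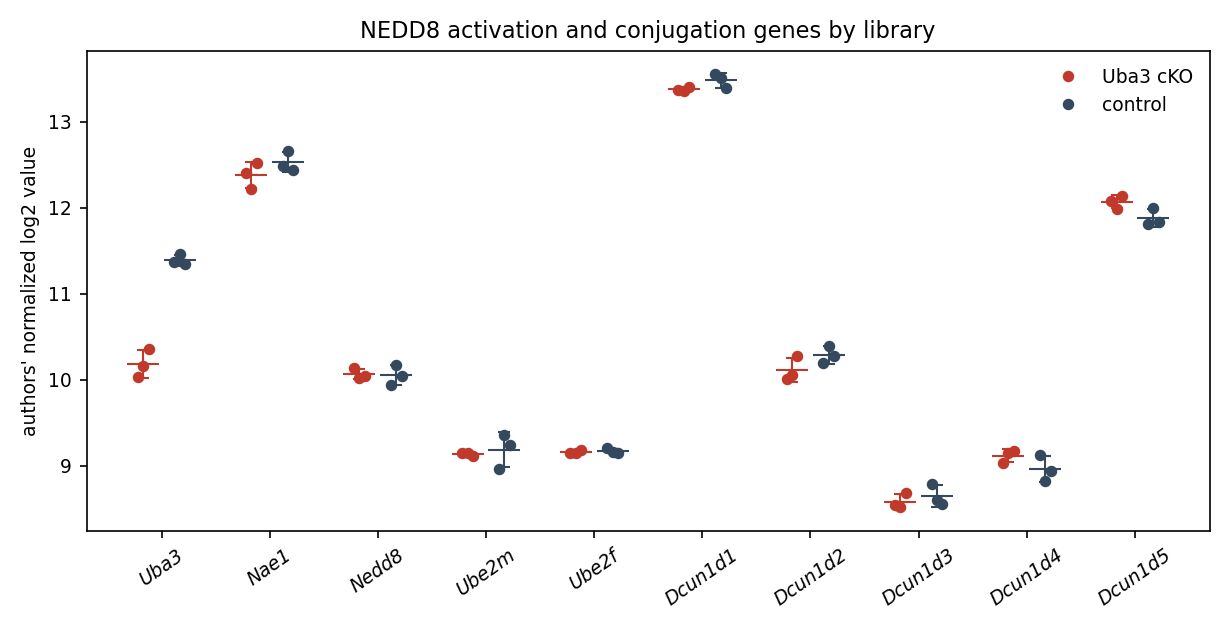
The authors' normalized log2 value of each of the 10 genes (y axis) in the 3 Uba3 cKO libraries (red, left of each pair) and the 3 control libraries (dark, right); points are libraries, horizontal ticks are means and bars are SD. The Uba3 points lie between 10.03 and 10.36 in Uba3 cKO and between 11.34 and 11.46 in control, and the points of the other 9 genes overlap between the groups.

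Nae1 (ENSMUSG00000031878, chromosome 8) encodes the partner subunit of UBA3 and was not called. It stood at 12.40, 12.22 and 12.52 in Uba3 cKO libraries and at 12.49, 12.66 and 12.44 in control libraries. The ranges overlapped, with Uba3 cKO replicate 2 the lowest and control replicate 2 the highest. The log2 difference was -0.15 (95% interval -0.36 to 0.06, limma adjusted p = 0.389). It was -0.07 without Uba3 cKO replicate 2 and -0.09 without control replicate 2, and still not called. Because both subunits were measured in the same libraries, Uba3 can also be set against Nae1 within each library. This removes only a scaling factor that all genes of a library share. The transform of the values is not named, and any part of it that differs between genes would remain. On the log2 scale Uba3 minus Nae1 was -2.37, -2.06 and -2.16 in Uba3 cKO libraries and -1.12, -1.20 and -1.10 in control libraries. The groups did not overlap, and the difference was -1.06 (exact two-sided permutation p = 0.1, the smallest that 3 against 3 libraries allow, and 0.2 after Benjamini-Hochberg adjustment over the 8 within-library values computed). In linear values per kilobase of annotated exon, Nae1 was 3.23 to 4.03 times Uba3 in Uba3 cKO libraries and 1.66 to 1.78 times Uba3 in control libraries. The size of these ratios depends on the exon lengths, which merge all annotated transcripts of a gene.

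The sequences before the starts of the E1 subunit genes are shown because they belong to the partner subunits of 1 heterodimer. Uba3 is the targeted gene, and no link between these letters and its call was tested. Each holds the 250 bases before the RefSeq start, on the minus strand of build GRCm38.p6, with matches to the GC box GGGCGG on either strand in capitals. The window is chr6:97205648-97205897 for Uba3 and chr8:104534638-104534887 for Nae1.
Uba3: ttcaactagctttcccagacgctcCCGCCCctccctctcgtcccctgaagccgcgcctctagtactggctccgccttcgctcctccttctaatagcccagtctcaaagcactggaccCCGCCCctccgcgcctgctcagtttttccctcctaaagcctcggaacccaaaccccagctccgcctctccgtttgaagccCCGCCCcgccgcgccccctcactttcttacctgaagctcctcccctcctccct
Nae1: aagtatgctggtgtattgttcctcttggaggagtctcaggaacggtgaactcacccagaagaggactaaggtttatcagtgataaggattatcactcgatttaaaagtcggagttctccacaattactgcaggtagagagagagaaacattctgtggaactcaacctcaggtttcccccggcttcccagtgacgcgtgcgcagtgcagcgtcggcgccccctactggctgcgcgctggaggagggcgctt
The Uba3 window holds 3 GC boxes and the Nae1 window holds none of these letters. A GC box is in 32.7% of the 32851 RefSeq windows of this length. The Uba3 window is 63.6% G or C with 17 CpG dinucleotides, and the Nae1 window is 52.8% G or C with 13, against a median of 52.4% G or C over all windows. Of the 10 genes, 7 have a GC box and none has the TATA box TATAAA in any of their windows, where 12.4% of all windows hold a TATA box. The other motifs scanned were the ETS core CCGGAAG, found in 3 of the 10 genes, and the CCAAT box, found in 3. Of all windows, 6.91% hold the ETS core and 33.8% hold the CCAAT box. Genes with several annotated starts have more windows, 19 in all for the 10 genes, and so more chances of a match. These matches describe the letters of the reference genome only.

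Nedd8 (ENSMUSG00000010376, chromosome 14), which encodes the modifier itself, was at nearly the same level in both groups. Its log2 values were 10.13, 10.02 and 10.04 in Uba3 cKO libraries and 9.94, 10.17 and 10.04 in control libraries. The control values enclosed all 3 Uba3 cKO values. The log2 difference was 0.01 (95% interval -0.20 to 0.22, limma adjusted p = 0.957), and its sign turned under quantile normalization (-0.01). Set against Nae1 within each library, Nedd8 was -2.28, -2.20 and -2.48 in Uba3 cKO and -2.55, -2.49 and -2.40 in control, with overlapping groups (exact two-sided permutation p = 0.2, adjusted p = 0.267 over the 8 values). Nedd8 overlaps Gmpr2, a gene for a GMP reductase on the opposite strand, by 184 exonic bases, and 10% of its 50-base runs are found in Gmpr2 transcripts. No source used here states whether the counting used strand, and reads in that stretch are uncertain. Gmpr2 was far lower, at 6.12 to 6.35 in Uba3 cKO and 6.10 to 6.23 in control.

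The genes of both conjugating enzymes were within their replicate spread. Ube2m (ENSMUSG00000005575, chromosome 7) was at 9.15, 9.15 and 9.11 in Uba3 cKO libraries and at 8.96, 9.35 and 9.24 in control libraries. Its control libraries spread more widely (SD 0.20) than its Uba3 cKO libraries (SD 0.03), and they enclosed them. Ube2m had a log2 difference of -0.05 (95% interval -0.29 to 0.19, limma adjusted p = 0.842). Ube2f (ENSMUSG00000034343, chromosome 1) was at 9.14, 9.15 and 9.18 in Uba3 cKO libraries and at 9.20, 9.16 and 9.15 in control libraries. It was the steadiest of the 10 genes, with a pooled SD of 0.02, and 0.986% of all kept genes had a pooled SD as low or lower. Its log2 difference was -0.01 (95% interval -0.21 to 0.19, limma adjusted p = 0.953). Ube2m minus Ube2f within a library was between -0.07 and 0.01 in Uba3 cKO and between -0.24 and 0.20 in control, and the difference of -0.04 was well inside the control spread (exact two-sided permutation p = 0.8, adjusted p = 0.8).

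Ube2f has annotated processed pseudogenes that share part of its letters. In all, 3.18% of its 50-base runs occur in other transcripts, 1.37% in Gm5434 and 2.05% in Gm7099. Gm5434, a transcribed processed pseudogene, stood at 11.82 to 11.97 in Uba3 cKO and 11.86 to 11.95 in control, above Ube2f itself in all 6 libraries. Reads of the shared stretches could have been counted for either, and no source used here states how reads with several matches were treated. Gm7099 was not analysed here.

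**Figure D2:**
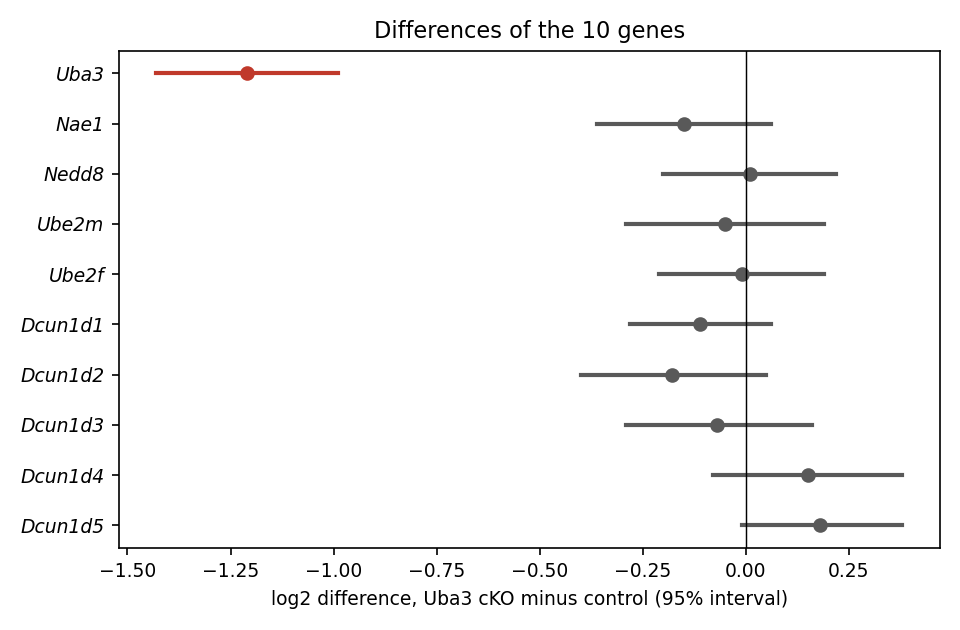
Log2 difference, Uba3 cKO minus control (x axis), for each of the 10 genes, with the 95% interval of the limma fit as a bar. The interval of Uba3 (red) runs from -1.43 to -0.99, while the intervals of the other 9 genes (grey) include 0 and together span -0.40 to 0.38.

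None of the 5 Dcun1d genes, which encode the co-factors of cullin neddylation, was called. Dcun1d1 (ENSMUSG00000027708, chromosome 3), also known as SCCRO, had the highest log2 values of the 10 genes. They were 13.37, 13.36 and 13.41 in Uba3 cKO libraries and 13.56, 13.51 and 13.39 in control libraries. Control replicates 1 and 2 were above all Uba3 cKO libraries and control replicate 3 lay among them. The log2 difference was -0.11 (95% interval -0.28 to 0.06, limma adjusted p = 0.457), and it was -0.07 without control replicate 1. Of the 50-base runs of Dcun1d1, 21.4% occur in other annotated transcripts, 20.6% in Tes3-ps and 0.8% in the antisense gene Gm15952. Tes3-ps was low, at 4.71 to 4.76 in Uba3 cKO and 4.73 to 4.80 in control, but its reads and those of Dcun1d1 cannot be fully separated.

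Dcun1d2 (ENSMUSG00000038506, chromosome 8) had the log2 difference farthest below 0 among the genes that were not called. It was at 10.01, 10.05 and 10.27 in Uba3 cKO libraries and at 10.19, 10.39 and 10.28 in control libraries. Uba3 cKO replicates 1 and 2 were below every control library and replicate 3 lay within the control range. For Dcun1d2 the log2 difference was -0.18 (95% interval -0.40 to 0.05, limma adjusted p = 0.334). Dcun1d3 (ENSMUSG00000048787, chromosome 7), whose human protein is anchored to membranes by a lipid, was at 8.54, 8.52 and 8.68 in Uba3 cKO libraries and at 8.79, 8.60 and 8.55 in control libraries. Its groups overlapped, and control replicate 1 was the highest of the 6 libraries. The log2 difference was -0.07 (95% interval -0.29 to 0.16, limma adjusted p = 0.755). Its exons overlap those of Lyrm1 on the opposite strand by 37 bases.

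The remaining Dcun1d genes had positive differences that did not pass the test. Dcun1d4 (ENSMUSG00000051674, chromosome 5) was at 9.03, 9.14 and 9.17 in Uba3 cKO libraries and at 9.12, 8.82 and 8.94 in control libraries. Control replicate 1 lay among the Uba3 cKO libraries and the other control libraries were lower. Dcun1d4 had a log2 difference of 0.15 (95% interval -0.08 to 0.38, limma adjusted p = 0.423). It was 0.23 without control replicate 1 and 0.08 without control replicate 2, and still not called. Dcun1d5 (ENSMUSG00000032002, chromosome 9) was at 12.08, 11.99 and 12.14 in Uba3 cKO libraries and at 11.81, 12.00 and 11.84 in control libraries. Control replicate 2 was just above Uba3 cKO replicate 2, and the other control libraries were below all Uba3 cKO libraries. It had the lowest adjusted p of the uncalled genes, with a log2 difference of 0.18 (95% interval -0.01 to 0.38, limma adjusted p = 0.249).

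Within a library, the Dcun1d genes can be given as shares of their summed linear values, which are not corrected for exon length unless stated. Dcun1d1 made up 62.8%, 63.5% and 61.8% in Uba3 cKO libraries and 67.7%, 65% and 65% in control libraries. Dcun1d5 made up 25.7%, 24.5% and 25.6% in Uba3 cKO libraries and 20.1%, 22.8% and 22.2% in control libraries. All Uba3 cKO libraries had a lower Dcun1d1 share and a higher Dcun1d5 share than any control library, and each difference had an exact two-sided permutation p of 0.1, the smallest possible, and an adjusted p of 0.2 over the 8 within-library values. Among all kept genes, 27.9% had groups that did not overlap in their own log2 values, and no such background was computed for shares. The shares of a library sum to the whole, so a higher share of Dcun1d5 goes with a lower share of another gene. The difference was -3.20 percentage points for Dcun1d1 and 3.54 percentage points for Dcun1d5. Dcun1d2 made up 6.15% to 7% in Uba3 cKO and 6.57% to 7.54% in control, and Dcun1d3 2.21% to 2.33% in Uba3 cKO and 2.15% to 2.48% in control, and both of these shares overlapped between the groups. Dcun1d4 made up 3.11%, 3.41% and 3.26% in Uba3 cKO libraries and 3.11%, 2.52% and 2.99% in control libraries. Its groups did not overlap before rounding, although replicate 1 of each group was at nearly the same share. The difference was 0.39 percentage points (exact two-sided permutation p = 0.1, adjusted p = 0.2), and 0.21 without control replicate 2. Per kilobase of exon the shares were different in size, because the annotated exons of Dcun1d1 (9.023 kb) are longer than those of Dcun1d5 (3.077 kb). On that scale Dcun1d1 made up 40.1%, 41% and 39.3% in Uba3 cKO libraries and 46.3%, 42.8% and 43% in control libraries. Dcun1d5 made up 48.1%, 46.4% and 47.7% per kilobase in Uba3 cKO libraries and 40.3%, 44.1% and 43.1% in control libraries. Dcun1d5 thus had the largest per-kilobase share in all 3 Uba3 cKO libraries, and in control it was above Dcun1d1 in replicates 2 and 3 and below it in replicate 1. The Dcun1d1 and Dcun1d5 groups again did not overlap, whereas the per-kilobase Dcun1d4 shares, 3.09% to 3.43% in Uba3 cKO and 2.58% to 3.31% in control, did.

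**Figure D3:**
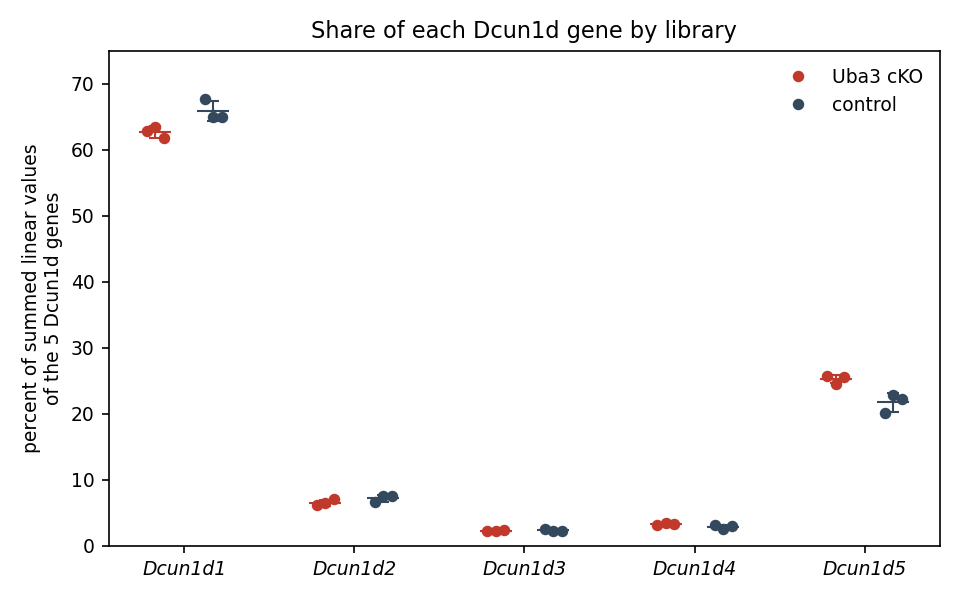
Share of each Dcun1d gene in the summed linear values of the 5 Dcun1d genes (y axis, percent, not corrected for exon length) in the 3 Uba3 cKO libraries (red, left) and the 3 control libraries (dark, right), with means and SD. Dcun1d1 averaged 62.7% in Uba3 cKO and 65.9% in control, and Dcun1d5 averaged 25.3% in Uba3 cKO and 21.7% in control.

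**Figure D4:**
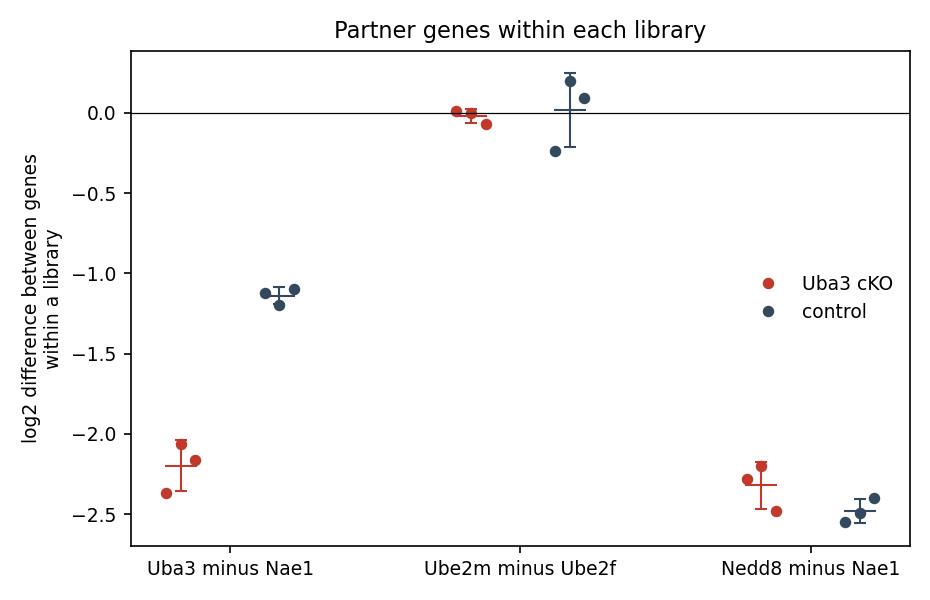
Log2 difference between partner genes within each library (y axis) for Uba3 minus Nae1, Ube2m minus Ube2f and Nedd8 minus Nae1, in the 3 Uba3 cKO libraries (red, left) and the 3 control libraries (dark, right), with means and SD. Uba3 minus Nae1 averaged -2.20 in Uba3 cKO and -1.14 in control, and the groups of the other pairs overlap.

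To compare levels between genes, the log2 values were set per kilobase of annotated exon. In control libraries the order on this log2 per-kilobase scale was Dcun1d1 (10.31), Dcun1d5 (10.26), Nedd8 (9.72), Nae1 (9.49), Uba3 (8.72), Dcun1d2 (7.97), Ube2m (7.95), Dcun1d4 (6.42), Ube2f (6.02) and Dcun1d3 (5.68). The highest was 24.8-fold above the lowest. The neighbours Dcun1d1 and Dcun1d5, Nedd8 and Nae1, and Dcun1d2 and Ube2m overlapped between the 3 control libraries, and the other neighbours did not. In Uba3 cKO libraries Uba3 stood at 7.51 on the log2 per-kilobase scale, which is place 7 of 10, below Ube2m (7.90) and Dcun1d2 (7.79). In control libraries it held place 5, above both. Dcun1d5 (10.45) was above Dcun1d1 (10.21) in Uba3 cKO, but these genes overlapped in control. The exon lengths come from GENCODE M21 and may differ from those of the authors' annotation. They merge the exons of all annotated transcripts of a gene, and which transcripts were present was not tested. Ube2m (2.357 kb) and Ube2f (8.842 kb) both averaged 9.16 over the 6 libraries before division, so their places differ through length. The order, the 24.8-fold range and the per-kilobase ratios and shares above depend on these lengths.

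**Figure D5:**
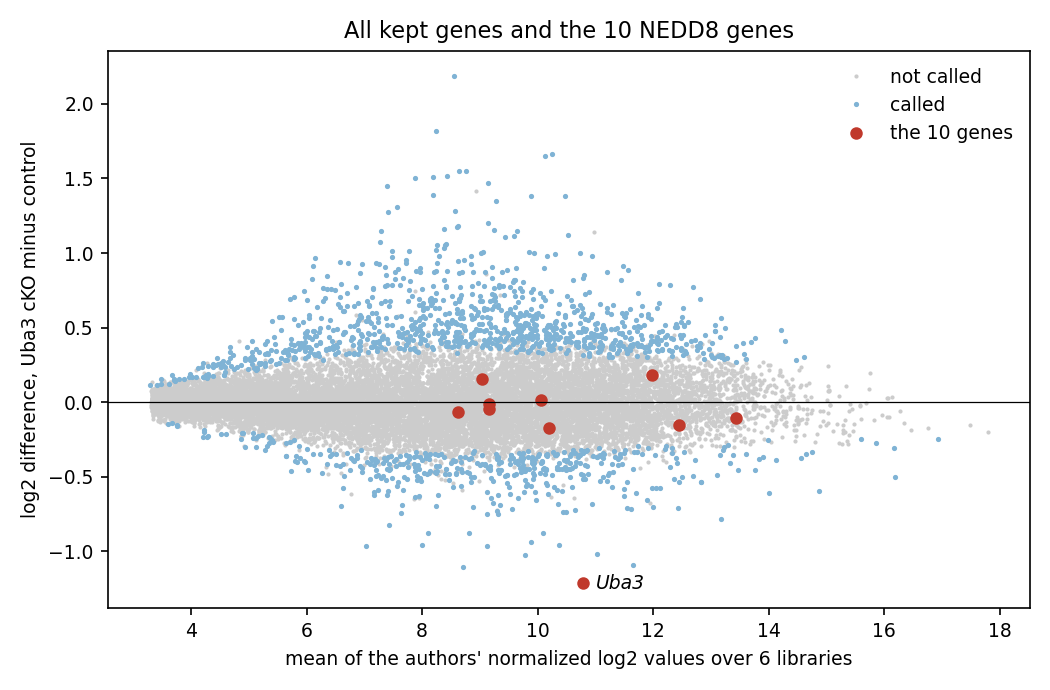
Log2 difference, Uba3 cKO minus control (y axis), against the mean normalized log2 value over the 6 libraries (x axis) for all 17450 kept genes (grey, not called; blue, called at a limma adjusted p under 0.05), with the 10 NEDD8 enzyme genes in red. Uba3 at -1.21 lies below every other kept gene, and the other 9 genes lie between -0.18 and 0.18.

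The kept genes nearest to Uba3 in their pattern across the libraries are listed as a description only. Likeness was the root mean square difference from Uba3, over 6 libraries, of each gene's log2 deviations from its own control mean. Because Uba3 was far lower in Uba3 cKO, this measure can pick only genes that were lower too. The nearest were Pla2g4e, a cytosolic phospholipase A2 gene (0.18), Nptx2, a neuronal pentraxin gene (0.22), Gm45645 (0.23), Slco5a1, a solute carrier gene (0.23), and AC151293.1 (0.24). Their log2 differences were -1.02, -0.96, -0.97, -0.94 and -0.96.

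None of the 6 protein-coding genes nearest to Uba3 on chromosome 6, 3 on each side, was called. On the side of the 3′ end of Uba3 the log2 differences were 0.12 for Tmf1, -0.34 for Eogt and -0.22 for Fam19a4, with limma adjusted p of 0.403, 0.0759 and 0.217. On the other side they were 0.04 for Arl6ip5, 0.03 for Lmod3 and -0.01 for Frmd4b, with limma adjusted p of 0.781, 0.857 and 0.941. Eogt, which encodes a glycosyltransferase of the endoplasmic reticulum, was at 8.45, 8.41 and 8.13 in Uba3 cKO libraries and at 8.69, 8.58 and 8.75 in control libraries, and its groups did not overlap, nor did those of Tmf1 and Fam19a4. Tmf1 was higher in Uba3 cKO, while Eogt and Fam19a4 were lower. Groups did not overlap for 27.9% of all kept genes, and an effect of the locus was not tested. Taking the nearest protein-coding gene on each side of the other 9 genes as well gave 24 neighbours, of which 20 were kept. Chmp2a, an ESCRT-III subunit gene beside Ube2m, was the 1 neighbour called, where 8.14% of all kept genes were called. It was at 9.41, 9.37 and 9.17 in Uba3 cKO libraries and at 9.53, 9.90 and 9.78 in control libraries (log2 difference -0.42, limma adjusted p = 0.0428).

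The genes around this cascade were mostly not called either. Of 62 further genes of the NEDD8 pathway and of related ubiquitin-like systems, 61 were kept, 2 were called higher, none was called lower and 59 were not called. Their median log2 difference was -0.02. Over all kept genes 8.14% were called, 5.64% higher and 2.50% lower, so a list that is mostly not called is not particular to this pathway. Among 10 genes for cullins and their RBX RING partner proteins, Cul5 rose, and the median was -0.02. Cul5, the cullin that in human cells receives NEDD8 through UBE2F, was at 13.04, 13.00 and 13.20 in Uba3 cKO libraries and at 12.35, 12.23 and 12.36 in control libraries. Its log2 difference was 0.77, or 170% of control (limma adjusted p = 1.46e-04). Rnf7, the RING partner of CUL5, was at 8.72, 9.05 and 8.90 in Uba3 cKO and 9.01, 9.11 and 8.75 in control, and it was not called (log2 difference -0.07, limma adjusted p = 0.784). The Cul5 groups stood apart, while those of Ube2f and Rnf7 overlapped; the difference between these genes was not tested. Rbx1, the RING partner that works with UBE2M, had a log2 difference of -0.15 (limma adjusted p = 0.445).

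Among 14 genes for NEDD8 removal, which are the COP9 signalosome subunits and NEDD8 proteases, Cops7b rose and 13 were not called, and the median was -0.08. Cops7b was at 9.57, 9.27 and 9.60 in Uba3 cKO libraries and at 8.97, 9.06 and 9.14 in control libraries (log2 difference 0.42, limma adjusted p = 0.0329). Its call ended when any library but Uba3 cKO replicate 2 was left out (limma adjusted p up to 0.132). Its paralog Cops7a, an alternative subunit of the same complex, had a log2 difference of 0.02. Senp8, a protease that processes the NEDD8 precursor, was at 12.13, 11.79 and 12.21 in Uba3 cKO libraries and at 12.03, 12.24 and 12.15 in control libraries, and it was not called (-0.10, limma adjusted p = 0.659).

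None of 9 genes for cullin exchange and NEDD8 binding was called, with a median log2 difference of 0.03. The 2 of highest level were Cand1, the cullin exchange factor (0.04), and Arih1, a ubiquitin ligase that works with neddylated cullins (0.08). None of 8 genes for the activating enzymes of other ubiquitin-like proteins was called, with a median of -0.01. Uba1, the main ubiquitin E1, was at 14.08, 14.04 and 14.04 in Uba3 cKO and 13.95, 14.19 and 14.10 in control (-0.03, limma adjusted p = 0.873). Uba2, the catalytic subunit of the SUMO E1 and a relative of Uba3, was at 12.39, 12.33 and 12.56 in Uba3 cKO and 12.40, 12.50 and 12.38 in control. Both genes overlapped between the groups, while Uba3 did not.

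The lists of related conjugating enzymes and modifiers were alike in this respect. None of 6 genes for conjugating enzymes of other ubiquitin-like proteins was called, with a median log2 difference of -0.03, including Ube2z (0.02). None of 14 kept genes for ubiquitin and other ubiquitin-like proteins was called, with a median of -0.03, including Atg12, a modifier of autophagy (0.05), and Fau, a ubiquitin-like fusion with a ribosomal protein (-0.12). Isg15 was under the level filter.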

How the data were processed

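The 6 RNA-seq libraries of mouse GV oocytes, 3 Uba3 cKO and 3 control, were grouped by sample title. Per the submitters' processing notes, fastp, STAR, featureCounts, DESeq2 and GRCm39 were used; versions, order and settings are not given in the sources used here. The authors deposited normalized log2 values (0.04 to 18.01). The unit was read from the values and the transform is not named; if it is a regularized logarithm, differences of low genes are shrunken.

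Symbols, lengths and gene order came from GENCODE M21 (96.2% of IDs matched), and promoter sequences from RefSeq (GRCm38.p6). Genes with a linear value of 10 or more in at least 3 libraries were kept (17450). The tests used limma 3.58.1 (R 4.3.3) with an intensity trend and no pseudocount, with Benjamini-Hochberg adjustment over all kept genes, and called at an adjusted p under 0.05. The fit was tested on simulated data. Single within-library values used an exact two-sided permutation test. Shared letters were counted as identical runs of 50 bases in annotated transcripts. The genes and lists were chosen with earlier results of these data known. All 10 genes were named, with called list members (otherwise the 2 of highest level), nearest neighbours and the 5 genes most like Uba3. A gene that this rule takes is not reported here. Rnf7, Rbx1, Cops7a and Senp8 were named after their values were seen. Alternatives covered pseudocounts, filters, scaling, variance models, weights, a replicate block and leaving out each library.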

Additional observations from a re-analysis of the deposited data

How the results depend on the processing

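Uba3 was the 1 gene of the 10 called under all 17 alternatives, with log2 differences between -1.30 and -1.13 and adjusted p up to 8.11e-04. The number of genes called among all kept genes was 2298 with array weights and 618 to 1637 when 1 library was left out, against 1421. It was 681 without Uba3 cKO replicate 1, 709 without Uba3 cKO replicate 3, 780 without control replicate 2 and 618 without control replicate 3. It was 1283 without Uba3 cKO replicate 2 and 1637 without control replicate 1. All of these fits have fewer samples, and the count differed with the library left out. The cause was not tested for these fits or for array weights. Differences near 0 turned sign. Nedd8 was -0.01 under quantile normalization and ran from -0.04 to 0.07 when 1 library was left out. Over the same left-out libraries, Ube2m ran from -0.16 to 0.04, Ube2f from -0.02 to 0.00, Dcun1d3 from -0.12 to 0.00, Ube2m minus Ube2f from -0.16 to 0.06 and the Dcun1d3 share from -0.13 to 0.04 percentage points. Nae1 ran from -0.22 to -0.07, Dcun1d1 from -0.16 to -0.07, Dcun1d2 from -0.25 to -0.13, Dcun1d4 from 0.08 to 0.23 and Dcun1d5 from 0.15 to 0.24, and none of them was called. Whether the replicate numbers pair the samples is not labelled. Same-numbered libraries had correlations of deviations from their group means of -0.085, -0.198 and -0.054. Differently numbered libraries reached 0.277 (Uba3 cKO 2 with control 1), 0.249 (Uba3 cKO 3 with control 2) and 0.194 (Uba3 cKO 1 with control 3). The remaining pairs were at -0.204, -0.065 and -0.106. The deviations within a group are tied to their own mean, so these correlations cannot decide whether samples were paired. Whether the libraries share a batch across differing numbers was not tested, and the replicate block joins only equal numbers. With the replicate block 1258 genes were called, Uba3 was -1.21 and no call among the 10 genes changed. Depth is unknown, so its limit on low genes cannot be stated.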
